A study of Mus musculus with 12 samples.

Results

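PIF1, the RecQ family and further DNA helicases linked to G-quadruplexes were examined here as a group of 9 genes, Pif1, Blm, Wrn, Recql, Recql4, Recql5, Brip1, Rtel1 and Dna2. Not every member is known to unwind G-quadruplexes. They were taken by name out of 24091 genes in the table of RNA levels, and all 9 were found. RNA had been sequenced from 12 mouse samples in 4 groups of 3. The tumors were medulloblastomas of mice with the genotype Brca2-mut;Trp53-mut, from mice GB344, GB359 and GB370, and the adjacent samples were the normal-labelled cerebellum next to those tumors in the same 3 mice. Tumor-free control cerebella came from 3 mice labelled Brca2-mut;Trp53-WT, GB361, GB508 and GB512, called Brca2-mut controls below, and from 3 mice labelled Brca2-WT;Trp53-mut, GB517, GB519 and GB520, called Brca2-WT controls below.

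In this model Brca2-mut stands for a floxed Brca2 without its exons 3 and 4, cut out by a Cre transgene under the human GFAP promoter and so in the central nervous system alone, and Trp53-mut for a knockout in the whole body on a mixed strain background. The tumors therefore differed from either control group in genotype as well as in tissue, and no cerebellum with both genes intact was analysed here. The labels gave neither the age of a mouse nor whether a control animal carried Cre.

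G-quadruplexes are stacked four-stranded folds of guanine-rich DNA that can stall a replication fork. PIF1 unwinds them from the 5′ side of the strand, whereas the RecQ enzymes (BLM, WRN, RECQL, RECQL4 and RECQL5) travel 3′ to 5′ and also dissolve recombination intermediates. BRIP1, also called FANCJ, and RTEL1 are iron-sulfur helicases that move 5′ to 3′, at stalled forks and at telomeres respectively, and DNA2 joins a helicase to a nuclease that trims long flaps and resects broken ends. Medulloblastoma of the Sonic Hedgehog type grows from cerebellar granule cell progenitors, cells that divide after birth and are absent from the adult cerebellum.

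The genes lie on 8 chromosomes, and Recql5 and Brip1 share chromosome 11. In GRCm38.p6 coordinates Pif1 occupies chr9:65587150-65595967 on the plus strand, Dna2 chr10:62946983-62974188 on the plus strand and Rtel1 chr2:181319711-181356616 on the plus strand. The minus strand holds Blm at chr7:80454993-80535148, Wrn at chr8:33234372-33385543, Recql at chr6:142350342-142387100 and Recql4 at chr15:76703553-76710616. It also holds Recql5 at chr11:115892595-115933514 and Brip1 at chr11:86058136-86201215. Of the exonic bases of Recql, 37.7% are also exonic in Pyroxd1 on the other strand, against 9.72% of Recql4 with Mfsd3 and 2.81% of Recql5 with Sap30bp. The library kit does not mark strand, so reads from those stretches could have been assigned to either gene, and the levels of Recql and Recql4 are uncertain to that extent.

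RefSeq promoter windows, 250 bases before to 50 after a start site, were at hand for 6 of the 9 genes (7 windows, all but Pif1, Wrn and Recql4). Stretches of 3 promoters are shown because they set the letters of genes that rose in the tumors (Blm and Dna2, below) beside those of a gene that did not pass the test (Brip1). Each is printed 5′ to 3′ on the strand of its gene and stops before the gene's outermost annotated start. Capitals mark CCAAT or its reverse complement ATTGG, the letters bound by the factor NF-Y and common in promoters of cell cycle genes. The Blm stretch (chr7:80535149-80535248, minus strand), the Brip1 stretch (chr11:86201216-86201303, minus strand) and the Dna2 stretch (chr10:62946779-62946982, plus strand) read:
Blm: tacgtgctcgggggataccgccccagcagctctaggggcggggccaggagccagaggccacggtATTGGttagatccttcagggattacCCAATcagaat
Brip1: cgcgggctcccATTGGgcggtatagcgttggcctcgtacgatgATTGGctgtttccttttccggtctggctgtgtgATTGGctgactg
Dna2: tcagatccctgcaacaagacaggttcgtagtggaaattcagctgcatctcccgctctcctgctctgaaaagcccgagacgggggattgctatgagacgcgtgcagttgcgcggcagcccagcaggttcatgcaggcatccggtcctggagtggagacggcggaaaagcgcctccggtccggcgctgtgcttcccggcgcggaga

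CCAAT on either strand was found in the windows of Blm, Brip1, Recql and Recql5 and not in those of Dna2 and Rtel1, and 37.4% of all 32851 promoter windows of this length held it. Blm, which rose, and Brip1, which did not pass the test, thus both carried it, while Dna2 rose without it in this window. None of the 7 windows held the E2F letters TTTCCCGC or TTTGGCGC (1.07% and 0.514% of all windows) or the CHR letters TTTGAA (17.9% of all windows), each searched on both strands.

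Runs of guanine that could fold into a G-quadruplex were sought too, as 4 runs of at least 3 guanines with 1 to 7 bases between them on either strand, a pattern present in 18.6% of all windows. The promoters of Rtel1 and Brip1 held such a pattern, 2 of the 6 genes with windows, too few to set apart from that share. The pattern is in capitals, and on the gene strand of Rtel1 it appears as cytosines. The stretches lie at chr2:181319602-181319636 for Rtel1 and chr11:86201348-86201379 for Brip1 and read:
Rtel1: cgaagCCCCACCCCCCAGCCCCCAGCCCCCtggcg
Brip1: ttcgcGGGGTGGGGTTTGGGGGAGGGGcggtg

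Levels are given in TPM, a share of all transcripts that divides by transcript length and so allows genes to be compared with each other. Read counts were not analysed here, so the depth behind a value is unknown. Differences are log2 fold changes of TPM + 1 fitted by limma over every gene that reached 1 TPM in 3 or more of the samples compared. A gene was called, and is said to have risen or fallen, at an adjusted p under 0.01 with a log2 fold change of at least 1 in size. Each sample of a group came from a different mouse, so the spread within a group is that between 3 mice. For adjacent tissue against the controls, both control genotypes were pooled, so the spread there also holds any difference between the genotypes. In the comparison of tumor with adjacent tissue the same 3 mice gave both groups, and the main fit treated their samples as independent. In bulk tissue fewer cells of a type and less RNA per cell cannot be told apart.

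Summed gene levels did not check the genotype labels, since both alleles remove only some exons. Brca2 lay at 8.22 to 14.6 TPM in the tumors, 4.52 to 6.98 TPM in adjacent tissue and 3.24 to 4.40 TPM in the 6 controls, and Trp53 at 47.1 to 49.4 TPM in the controls labelled Trp53-mut against 33.1 to 37.2 TPM in those labelled Trp53-WT. Markers of the tissue did separate the tumors. Of 8 granule cell progenitor genes 7 rose in the tumors against the Brca2-WT controls, with sums of 2434 to 3187 TPM in tumors and 521 to 712 TPM in the 6 controls. The gene that did not rise, Zic1, gave 454 to 671 TPM of the sum in tumors and 475 to 666 TPM in the controls. All 6 mature granule neuron, all 6 Purkinje cell and all 6 oligodendrocyte markers fell, as did 5 of 6 markers of astrocytes and Bergmann glia, 5 of 5 of choroid plexus and 1 of 5 of endothelium, and 1 of 6 microglial markers rose. Choroid plexus markers summed to 3943 to 5155 TPM in the Brca2-WT controls, to 14.0 to 865 TPM in the Brca2-mut controls and to at most 58.0 TPM in tumors and adjacent tissue.

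In all, 5 of the 9 helicases were higher in the tumors than in the Brca2-WT controls by the call: Pif1, Dna2, Blm, Recql4 and Wrn, in order of size. The background for that count is that 13.5% of the 15970 genes tested were called higher in the same comparison and 22.3% lower. No helicase of the group was called lower by limma, and all 9 log2 fold changes were above 0. An unadjusted limma p under 0.05 was found for 7 of the 9, beside 69.0% of all genes tested, so that count lay near the background. The median over the 9 genes was 1.27 on the log2 scale, beside -0.16 over all genes tested. For 8 of the 9, all but Recql5, every tumor lay above every Brca2-WT control, an order seen in 30.9% of all genes tested.

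**Figure D1:**
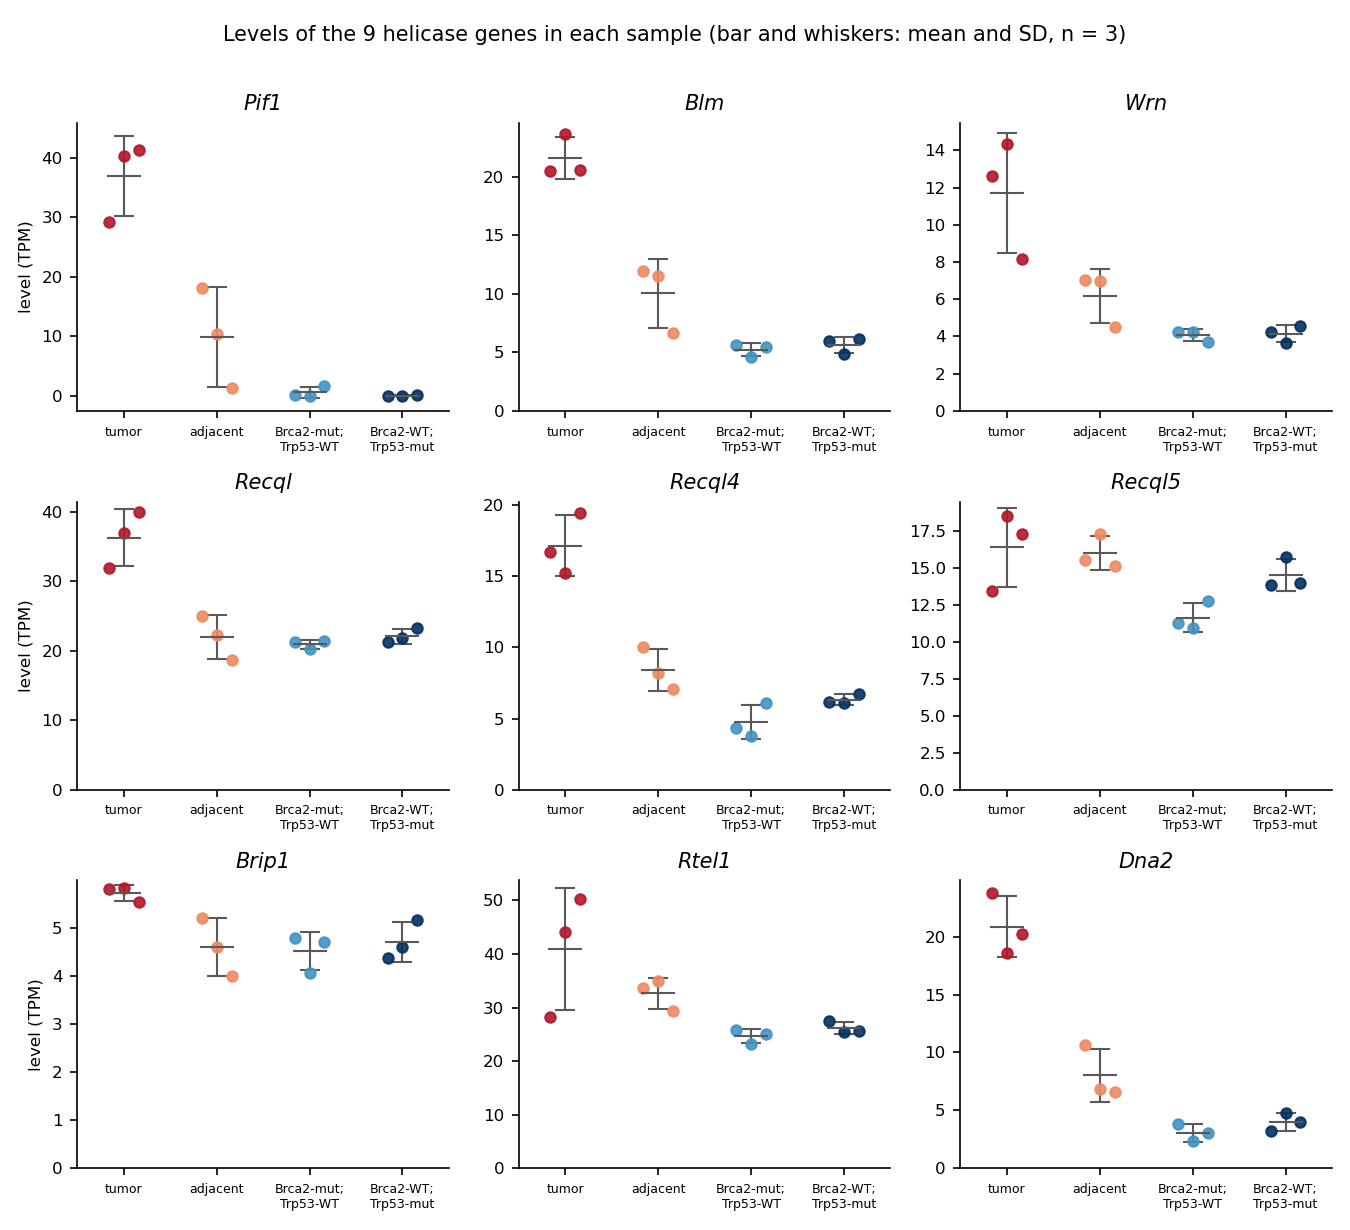
Level in TPM of each of the 9 helicase genes (1 panel a gene, each with its own vertical axis) in the 3 samples of each of the 4 groups, with points for samples and a bar with whiskers for the mean and SD. Pif1 runs from 29.2 to 41.4 TPM in tumors and is at most 1.64 TPM in the 6 controls, whereas the 4 groups of Recql5 and Brip1 lie close together.

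Pif1, the 5′ to 3′ helicase named first above, had the widest range of the group. It stood at 29.2, 40.2 and 41.4 TPM in the tumors of GB344, GB359 and GB370, at 0.0620, 0.0218 and 1.64 TPM in the Brca2-mut controls GB361, GB508 and GB512, and at 0, 0.0257 and 0.0641 TPM in the Brca2-WT controls GB517, GB519 and GB520. Tumors and controls were far apart, and of the 6 controls only GB512 exceeded 1 TPM. The log2 fold change was 5.19 against the Brca2-WT controls (SE 0.17, limma adjusted p = 4.57e-06), which ranked 56 among 15970 genes by size of the rise. Because Pif1 was near 0 in the controls, that value rests on the added constant: with 0.1 or 0.01 TPM in place of 1 it was 8.17 or 10.26, and Pif1 passed the filter on low values through the tumors alone. Without that filter it was called as well (adjusted p = 1.75e-05).

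Dna2, the helicase-nuclease of flap processing and end resection, was second. The tumors held 23.8, 18.6 and 20.2 TPM, the Brca2-mut controls 3.85, 2.34 and 3.02 TPM and the Brca2-WT controls 3.26, 4.75 and 3.96 TPM, in the order of mice above. The lowest tumor was well above the highest control. Its log2 fold change was 2.13 (SE 0.17, limma adjusted p = 5.96e-05), a ratio of mean TPM of 5.23.

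Blm, mutated in Bloom syndrome and the helicase of the complex that dissolves double Holliday junctions, was at 20.5, 23.6 and 20.6 TPM in the tumors. The Brca2-mut controls had 5.61, 4.58 and 5.46 TPM and the Brca2-WT controls 5.96, 4.85 and 6.10 TPM. Tumor values were close together and none came near a control. The log2 fold change was 1.77 (SE 0.14, limma adjusted p = 6.12e-05).

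Recql4, which is mutated in Rothmund-Thomson syndrome and takes part in starting replication, was at 16.7, 15.3 and 19.5 TPM in the tumors, against 4.36, 3.76 and 6.07 TPM in the Brca2-mut controls and 6.14, 6.10 and 6.76 TPM in the Brca2-WT controls. No tumor overlapped a control. Its log2 fold change was 1.30 (SE 0.14, limma adjusted p = 0.000225).

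Wrn, mutated in Werner syndrome and carrying an exonuclease besides its helicase, had tumor levels of 12.6, 14.3 and 8.14 TPM. The Brca2-mut controls were at 4.25, 4.25 and 3.68 TPM and the Brca2-WT controls at 4.24, 3.67 and 4.54 TPM. The tumor of GB370 was clearly the lowest of the 3 and still above all controls. The log2 fold change was 1.27 (SE 0.22, limma adjusted p = 0.00205), and without the Brca2-WT control GB519 it was 1.203 and no longer called (adjusted p = 0.0114).

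Recql, the most abundant RecQ gene in all 4 groups, changed by less than the fold required. It measured 31.9, 36.9 and 40.0 TPM in the tumors, 21.2, 20.2 and 21.4 TPM in the Brca2-mut controls and 21.2, 21.8 and 23.3 TPM in the Brca2-WT controls. Every tumor was above every control, with a log2 fold change of 0.69 (SE 0.12, 95% confidence interval 0.40 to 0.97, limma adjusted p = 0.00215).

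Rtel1, the telomere helicase, was spread most widely among the tumors, at 28.2, 44.2 and 50.3 TPM, while the Brca2-mut controls kept to 25.8, 23.2 and 25.0 TPM and the Brca2-WT controls to 27.5, 25.5 and 25.6 TPM. The tumor of GB344 was barely above the controls and the other two were well above. The log2 fold change of 0.58 had an interval of 0.08 to 1.09 (limma adjusted p = 0.0446) and missed the call.

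Brip1, the partner of BRCA1 in the Fanconi anaemia pathway, had tumor levels of 5.82, 5.85 and 5.54 TPM. The Brca2-mut controls lay at 4.79, 4.07 and 4.72 TPM and the Brca2-WT controls at 4.38, 4.60 and 5.18 TPM. The groups did not overlap but lay close, with a log2 fold change of 0.24 (interval -0.08 to 0.56, limma adjusted p = 0.156).

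Recql5, a RecQ helicase that binds RNA polymerase II, was at 13.4, 18.5 and 17.3 TPM in the tumors, 11.3, 10.9 and 12.8 TPM in the Brca2-mut controls and 13.8, 15.8 and 14.0 TPM in the Brca2-WT controls. The tumor of GB344 fell among the Brca2-WT controls. The log2 fold change was 0.15 (interval -0.21 to 0.52, limma adjusted p = 0.405), so that a rise of the size seen for Blm or Dna2 lay outside the interval.

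Set against the Brca2-mut controls, which share the Brca2 genotype of the tumors, the same 5 genes were called higher. The background was 14.3% of 15767 genes called higher and 20.5% called lower, and no helicase of the group was called lower. Log2 fold changes were 4.72 for Pif1 (SE 0.38, limma adjusted p = 5.41e-05), 2.43 for Dna2 (SE 0.20), 1.86 for Blm (SE 0.15), 1.68 for Recql4 (SE 0.20) and 1.30 for Wrn (SE 0.22), where that of Pif1 became 6.82 or 7.87 with the smaller constants. The median of the 9 was 1.30, beside -0.03 over all genes. Every tumor exceeded every Brca2-mut control for 9 of 9 genes, an order found in 33.2% of all genes tested. Both tumor comparisons used the same 3 tumors, so they are not independent of each other.

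The remaining 4 genes stayed below the fold required there too, with log2 fold changes of 0.76 for Recql, 0.67 for Rtel1, 0.45 for Recql5 and 0.29 for Brip1. Only Recql among them had an adjusted p under 0.01 (limma, 0.00166). Mean Recql5 was lower in the Brca2-mut than in the Brca2-WT controls, a difference that was not called, as described with the control genotypes below.

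**Figure D2:**
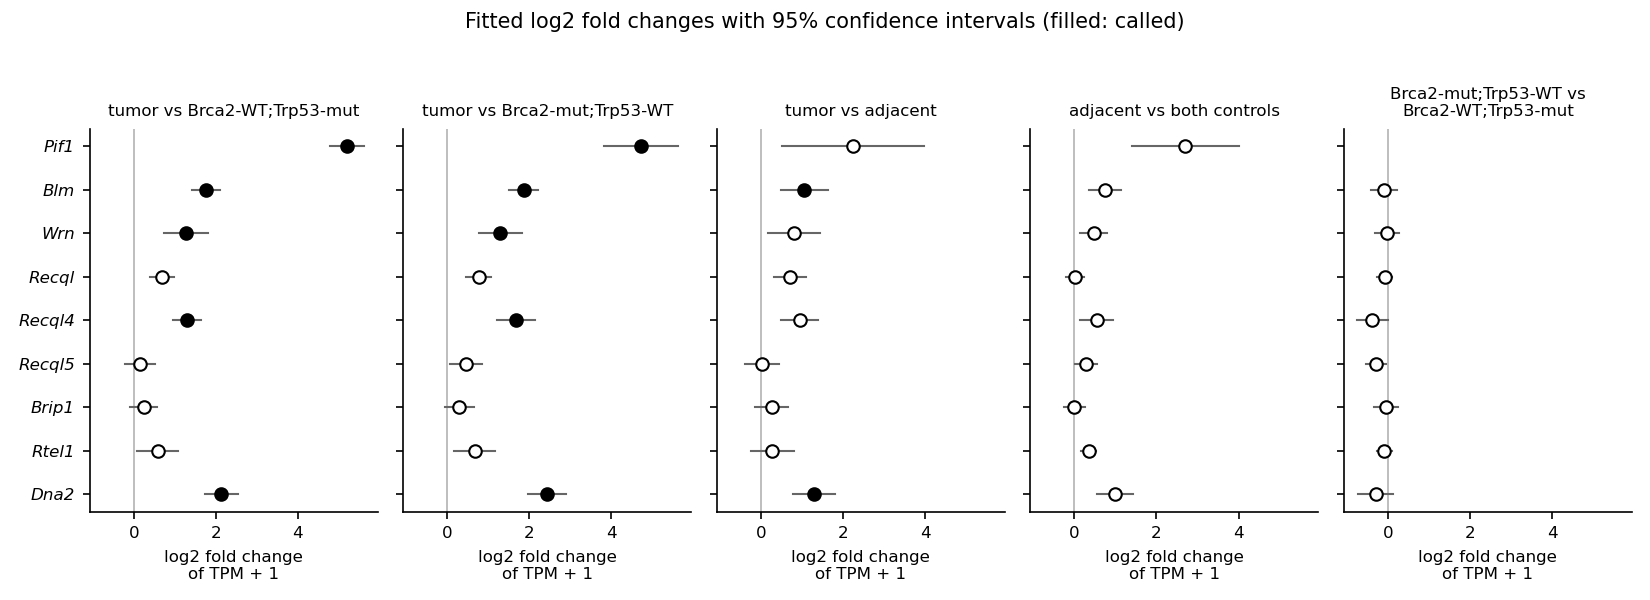
Fitted log2 fold change of TPM + 1 (horizontal axis) for each helicase gene (rows) in 5 comparisons (panels), with 95% confidence intervals as lines and filled points for called genes. In each tumor-to-control comparison 5 genes are called, 2 between tumor and adjacent tissue and 0 in the last 2 panels, where Pif1 has no point in the final panel as it did not pass the filter on low values.

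The relative amounts of the 9 RNAs differed between tumor and cerebellum. Their summed level was 208 ± 22.1 TPM (SD, n = 3) in tumors, 118 ± 22.4 TPM in adjacent tissue, 79.4 ± 5.41 TPM in the Brca2-mut controls and 87.7 ± 1.59 TPM in the Brca2-WT controls. Pif1 took 16.02%, 18.5% and 18.6% of that sum in the tumors and at most 1.96% in any control, and it was the second most abundant of the 9 in each tumor and the least abundant in all 6 controls.

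In tumors the order by mean level was Rtel1 (40.9 TPM), Pif1 (36.9), Recql (36.3), Blm (21.6), Dna2 (20.9), Recql4 (17.2), Recql5 (16.4), Wrn (11.7) and Brip1 (5.74). Only 2 steps of that order separated all samples, the step from Recql to Blm and the step from Wrn to Brip1, so Rtel1, Pif1 and Recql did not differ beyond their spread. In both control groups Rtel1, Recql and Recql5 came first, in that order, with every sample of each above every sample of the next. Then followed Blm, Recql4, Brip1, Wrn and Dna2 with mean levels of 3.07 to 6.33 TPM, where neighbours in the order overlapped within each group, and Pif1 came last, below every other gene in every control sample.

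**Figure D3:**
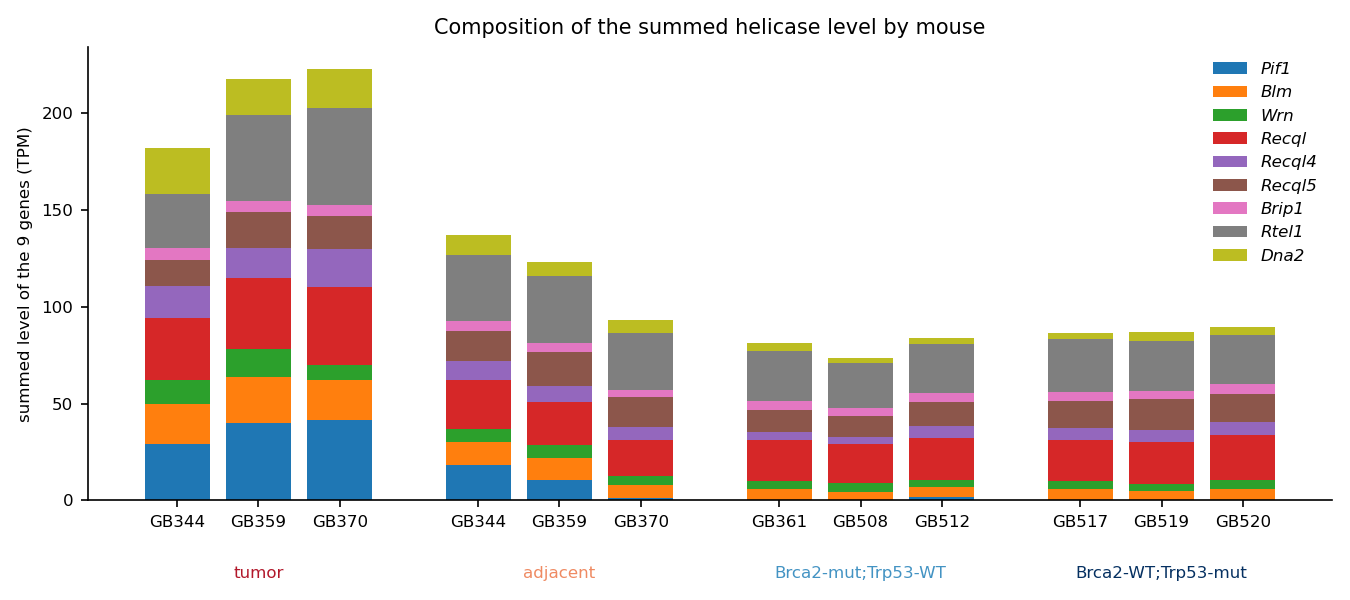
Summed level of the 9 helicase genes in TPM (stacked bars, 1 bar a sample, colours for genes) in the tumors, adjacent tissue and the control cerebella. The Pif1 segment makes up 16.02% to 18.6% of the tumor bars, shrinks from 13.2% to 8.38% and 1.34% over the adjacent samples of GB344, GB359 and GB370, and is close to 0 in the controls.

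Tumor and adjacent tissue of the same mice were compared next, which holds the genotype constant. Blm and Dna2 were called higher in the tumors, 2 of 9 genes, beside 4.76% of 15845 genes called higher and 18% called lower. Tumor levels of Dna2 exceeded the adjacent levels of 10.7, 6.87 and 6.58 TPM in each of the 3 mice, with a log2 fold change of 1.30 (SE 0.22, limma adjusted p = 0.0035). Blm had adjacent levels of 11.97, 11.5 and 6.67 TPM, also below the tumor in each mouse, and a log2 fold change of 1.06 (SE 0.24, limma adjusted p = 0.00996). With the mouse as a block 1 gene was called, Dna2 (adjusted p = 0.0038), and Blm was not (adjusted p = 0.0117). Both calls were fragile: with the tumor of GB344, the tumor of GB370, the adjacent sample of GB359 or the adjacent sample of GB370 left out none of the 9 was called, without the tumor of GB359 only Dna2 was, and without the adjacent sample of GB344 Dna2 and Recql4 were. Blm was called in 0 of these 6 fits.

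Recql4 and Wrn differed within each mouse as well, by less than the call required. Adjacent tissue held 10.01, 8.21 and 7.09 TPM of Recql4 and 7.04, 7.001 and 4.48 TPM of Wrn. The log2 fold changes were 0.95 for Recql4 (limma adjusted p = 0.00636) and 0.81 for Wrn (limma adjusted p = 0.0407). Recql4, short of the fold required by little, was called at 1.12 with median-of-ratios scaling, at 1.29 with quantile normalization, at 1.02 or 1.03 with the smaller constants and at 1.07 without the adjacent sample of GB344. The tumor-to-adjacent ratio of Wrn was alike in the 3 mice, at 1.79, 2.05 and 1.82, since the mouse with the lowest tumor level, GB370, also had the lowest adjacent level.

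Pif1 gave the largest difference and the least even one. Adjacent tissue held 18.1, 10.3 and 1.25 TPM in GB344, GB359 and GB370, so that its adjacent level was highest in the mouse whose tumor level was lowest. The tumor was above the adjacent tissue in each mouse, by 1.61, 3.90 and 33.1 times. The log2 fold change of 2.25 carried an SE of 0.73 and was not called (limma adjusted p = 0.0384), except in a fit over all 4 groups (adjusted p = 0.00957). It was 1.35 without the adjacent sample of GB370.

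Recql was at 25.0, 22.2 and 18.6 TPM in adjacent tissue, within or near the control range, and 0.70 higher on the log2 scale in the tumors (limma adjusted p = 0.0117). Brip1 had adjacent levels of 5.20, 4.61 and 4.02 TPM and a log2 fold change of 0.27 (limma adjusted p = 0.221). For Rtel1 (adjacent 33.7, 34.9 and 29.4 TPM, log2 fold change 0.28) and Recql5 (adjacent 15.6, 17.3 and 15.1 TPM, log2 fold change 0.02) the tumor was higher in 2 of 3 mice and lower in GB344. Every tumor was above every adjacent sample for 7 of the 9 genes, all but these 2, an order held by 23.7% of all genes tested. The median of the 9 log2 fold changes was 0.81, beside -0.14 over all genes.

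**Figure D4:**
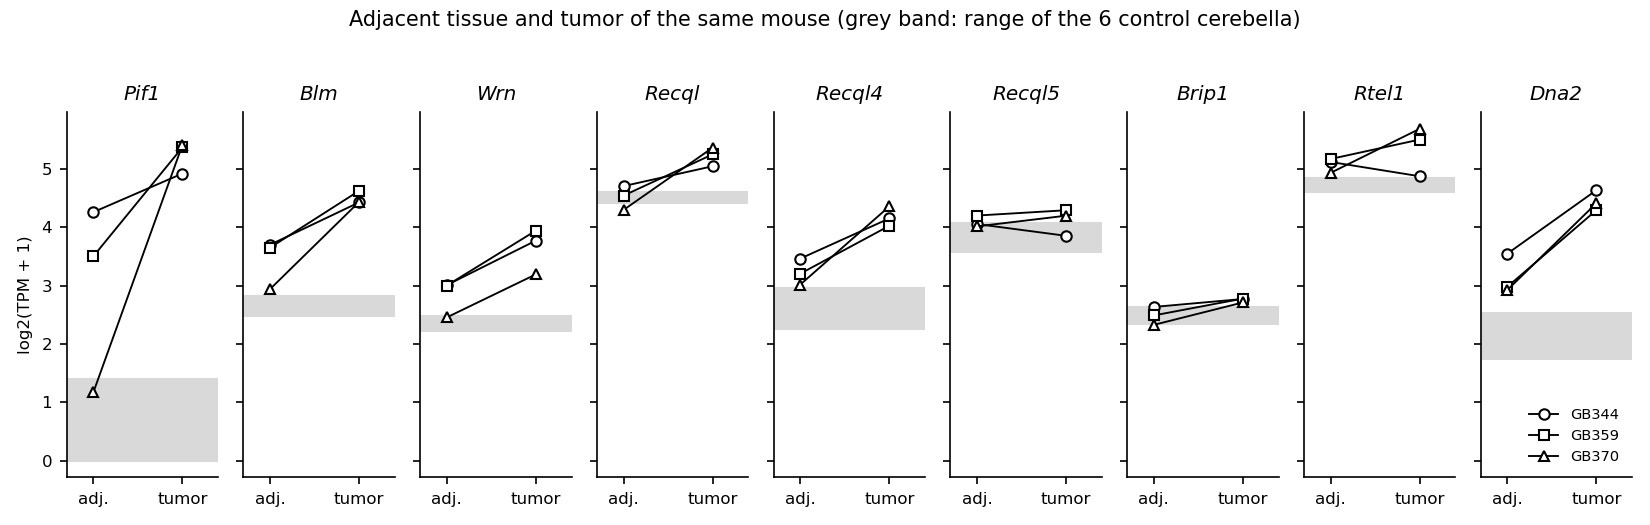
log2(TPM + 1) of each helicase gene in adjacent tissue and tumor, with a line joining the 2 samples of a mouse and a grey band for the range of the 6 control cerebella. Dna2 and Blm lines all run upward from above the band, while the adjacent sample of GB370 lies inside the band for Pif1, at 1.25 TPM, and the line of GB344 runs downward for Rtel1 and Recql5.

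Adjacent tissue was then compared with the 6 controls together, to see whether the cerebellum beside a tumor had the levels of tumor-free cerebellum. No helicase of the group was called by limma, where 0.224% of 16091 genes were called higher and 0.0124% lower. However, 7 of 9 had an unadjusted p under 0.05, beside 34.5% of all genes tested, and 4 an adjusted p under 0.05. Those 4 were Pif1 (log2 fold change 2.70, SE 0.59, limma adjusted p = 0.0207), Dna2 (0.99, SE 0.20, limma adjusted p = 0.0169), Blm (0.75, SE 0.17, limma adjusted p = 0.0244) and Rtel1 (0.35, SE 0.08, limma adjusted p = 0.0240), beside 15.7% of all genes at that limit. Every adjacent sample was above all 6 controls for 4 of the 9 genes, Blm, Recql4, Rtel1 and Dna2, as for 11.7% of all genes tested.

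Among the others, Recql4 differed by 0.54 (limma adjusted p = 0.066), Wrn by 0.47 (0.0535) and Recql5 by 0.28 (0.134) on the log2 scale, while Recql differed by 0.02 and Brip1 by -0.01. The adjacent sample of GB370 decided the outcome. Without it 2 genes were called higher, Pif1 (log2 fold change 3.60, limma adjusted p = 0.000383) and Dna2 (1.10, limma adjusted p = 0.0087), and no other single sample left out gave a call. Leaving out GB370 also raised the calls over all 16091 genes tested, from 36 to 564 called higher, so the change was not particular to the helicases. With 0.1 or 0.01 TPM as the added constant the log2 fold change of Pif1 was 4.96 or 6.50, still not called.

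Proliferation and progenitor markers differed across the adjacent samples in the same order. A list of 12 genes of G2 and mitosis summed to 433, 261 and 34.3 TPM in the adjacent samples of GB344, GB359 and GB370, to 973 to 1047 TPM in the tumors and to 8.06 to 11.9 TPM in 5 of the controls. The sixth control, GB512, stood at 65.1 TPM. Atoh1, the factor that marks granule cell progenitors, was at 59.4, 50.5 and 4.997 TPM in the adjacent samples. It reached 119 to 319 TPM in tumors and did not exceed 0.212 TPM in any control. The 8 progenitor genes summed to 1350, 1258 and 715 TPM in adjacent tissue. Of these sums Zic1 alone gave 641, 638 and 614 TPM, beside 475 to 666 TPM in the controls. Mature granule neuron markers summed to 2063 to 2826 TPM in adjacent tissue and 2546 to 3315 TPM in the controls. The part of these cells in the helicase levels of adjacent tissue was not tested.

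Pif1 was then set beside the G2 and mitosis genes. As a percentage of their summed level it was 3.0%, 3.84% and 4.12% in the tumors, 4.18%, 3.96% and 3.65% in adjacent tissue and 2.52% in the control GB512. In those 7 samples the percentage lay within a narrow band although the sum itself ranged from 34.3 to 1047 TPM. The other 5 controls were at 0% to 0.612%, on Pif1 levels of at most 0.0641 TPM. Relative to 14 S phase genes the percentage was 1.73% to 1.89% in tumors but 2.32%, 1.53% and 0.536% in the adjacent samples. The 2 lists have unlike baselines, however. In the 5 controls with little Pif1 the S phase genes still summed to 171 to 195 TPM, against 8.06 to 11.9 TPM for the G2 and mitosis genes. In the adjacent sample of GB370 the S phase sum was 233 TPM, so the low percentage there does not set S phase apart from mitosis. These are descriptions over 12 samples. Pif1 and the summed genes were measured in the same library of each sample, and tumor and adjacent tissue came from the same mice.

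**Figure D5:**
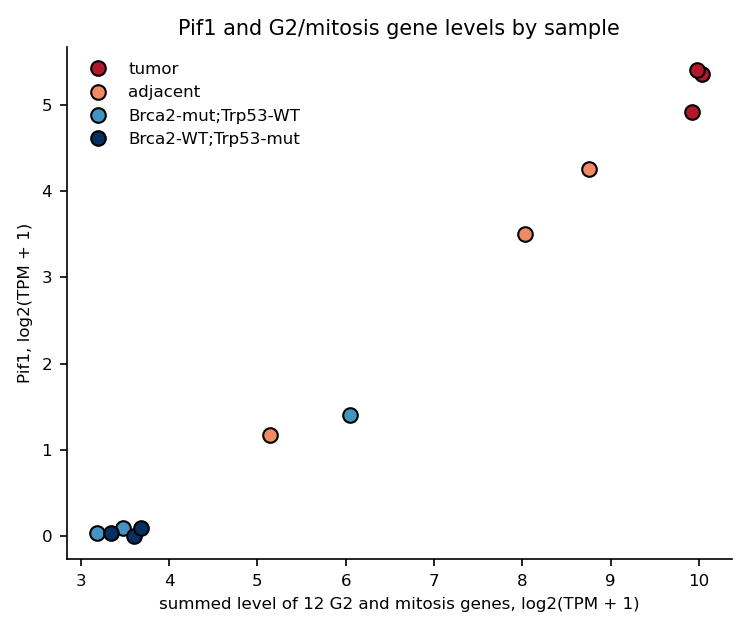
Pif1 (vertical axis) against the summed level of 12 G2 and mitosis genes (horizontal axis), both as log2(TPM + 1), with 1 point a sample coloured by group. The tumors lie at the upper right, the adjacent samples at 433, 261 and 34.3 TPM of the sum come down from them, the control GB512 lies among the adjacent samples and the other 5 controls sit together near 0.

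The genes whose profile over the 12 samples was nearest to that of a helicase, by the smallest root mean square difference of centred log2(TPM + 1), were sought among 16489 genes. For Pif1 they were Kif18b, a mitotic kinesin (difference 0.10), Foxm1, a transcription factor of G2 and mitosis genes (0.16), and Sox11, a factor of immature neurons (0.17), where Pif1 itself varied by 2.21 around its mean on the same scale. Kif18b averaged 42.7 TPM in tumors, 11.3 TPM in adjacent tissue and 0.407 TPM in the controls, close to Pif1 in all 3. Dna2 was nearest to Gm3636, Wdhd1, a replication fork protein, and Tcf3 (0.18 to 0.19, own variation 0.97). Recql4 was nearest to 5430416N02Rik, Dnmt1, the maintenance DNA methyltransferase, and Srsf6 (0.11 to 0.13, own variation 0.65).

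Blm was nearest to Mbtd1, Wdr46 and Sf3b3 (0.11 to 0.14, own variation 0.77) and Wrn to Sephs1, Rab39 and Nthl1, a base excision glycosylase (0.09 to 0.12, own variation 0.57). The nearest profiles were Dph6, Dstn and Arpp19 for Recql, Zdhhc16, Zfp865 and Polg2 for Recql5, Tpr, Ipmk and Csnk1g3 for Brip1 and Mcrs1, Vipas39 and Atg7 for Rtel1. These 4 genes varied little over the samples (0.15 to 0.33), and the differences were small accordingly (0.05 to 0.09).

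Between the 2 control genotypes no helicase of the group was called. Of the 8 that passed the filter 0 were called by limma, beside 0.0128% of 15575 genes called higher in the Brca2-mut controls and 0.0449% called lower. Beside 20.1% of all genes tested, 1 of the 8 had an unadjusted p under 0.05. That gene was Recql5, at 11.7 ± 0.970 TPM in the Brca2-mut controls and 14.5 ± 1.06 TPM in the Brca2-WT controls (SD, n = 3 each). Its log2 fold change was -0.30 (interval -0.54 to -0.06, limma adjusted p = 0.181). The median of the 8 was -0.09, beside -0.07 over all genes, and with quantile normalization it turned to 0.01. Pif1 was fitted only without the filter, with a log2 fold change of 0.46 and an interval of -0.39 to 1.32 (limma adjusted p = 0.569), which spans differences in either direction.

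Other helicases, partner proteins and G-quadruplex binding proteins gave the setting for the 9 genes. Of 12 other helicases of the same or related families, 5 rose in the tumors against the Brca2-WT controls and 0 fell, with a median log2 fold change of 0.83. Hells, a chromatin remodeller needed for DNA methylation (3.54, SE 0.30), and Ddx11, the iron-sulfur helicase of sister chromatid cohesion (2.15, SE 0.12), were the highest. Fancm at 0.08 (SE 0.15) and Helq at -0.51 (SE 0.13, limma adjusted p = 0.013) were the lowest and were not called. Against adjacent tissue 0 of these 12 were called by limma (median 0.64), which became 3 under median-of-ratios scaling and 5 under quantile normalization.

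Of 18 partners of the helicases, 11 rose against the Brca2-WT controls and 0 fell (median 1.23). Exo1, the exonuclease that resects ends in parallel with DNA2, had a log2 fold change of 4.0 (SE 0.16) and Brca1, which binds BRIP1, of 3.77 (SE 0.16). At the other end were Pold4 at -0.25 (SE 0.12) and Rmi1 at -0.61 (SE 0.13, limma adjusted p = 0.00571), neither of them called. TOP3A, RMI1 and RMI2 form the dissolution complex with BLM. Blm, Top3a (log2 fold change 1.19, SE 0.13) and Rmi2 (1.27, SE 0.16) rose. Rmi1, which was not called, measured 8.17 to 9.34 TPM in the tumors and 12.8 to 15.1 TPM in the 6 controls. Against adjacent tissue 6 of the 18 rose, Pcna, Rpa2, Rpa3, Topbp1, Pold1 and Pold2, and in adjacent tissue against the controls 0 of 17 tested did by limma (median 0.43).

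Of 12 other proteins that bind G-quadruplexes in DNA or RNA, 5 rose against the Brca2-WT controls and 0 fell (median 0.79), led by the RNA-binding proteins Hnrnpf (2.20, SE 0.09) and Hnrnpa1 (1.73, SE 0.15). Grsf1 at -0.16 (SE 0.10) and the RNA helicase Ddx5 at -0.63 (SE 0.14, limma adjusted p = 0.00568) were lowest and not called, and with quantile normalization 1 gene of the list was called lower. Dhx36, a helicase that unwinds G-quadruplexes in RNA and DNA, gave 0.22 (SE 0.13) and was not called. In the same comparison 12 of 12 G2 and mitosis genes rose (median 5.52, from Top2a at 7.22 down to Plk1 at 3.96) and 13 of 14 S phase genes did (median 3.70, from Uhrf1 at 5.74 down to Ccne2 at 1.0). Only 3 of the 12 G2 and mitosis genes were at 1 TPM or more in each Brca2-WT control, so most fold changes of that list rest on the added constant, as that of Pif1 does.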

How the data were processed

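RNA sequencing of 12 samples (poly(A) selection, NEBNext Ultra II kit) was quantified by the authors with Salmon 0.8.1 against the UCSC mm10 gene models and summed to genes with tximport. The table used here holds the TPM values deposited by the authors. Read counts were not analysed here, so depth, counting error and reads shared with near-identical sequences were not assessed. Of the columns with sample values 0 were left unused. The study used the same thresholds for a call, but with a different statistical model. It reports that Blm, Wrn and Brip1 were present without differential expression between tumor and normal cerebellum. Here Brip1 was likewise not called. Blm and Wrn, in contrast, were called higher in the tumors against the Brca2-WT controls, with log2 fold changes of 1.77 and 1.27. The reason for that difference from the study was not tested.

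log2(TPM + 1) was fitted with limma 3.58.1 in R 4.3.3 (lmFit, eBayes with a trend), for the groups of each of 5 comparisons, after leaving out genes that did not reach 1 TPM in 3 or more samples. Benjamini-Hochberg adjustment ran over all genes tested. All limma p-values are two-sided. Alternatives were other pseudocounts, filters, scalings and thresholds, an untrended fit, a joint fit of the 4 groups, the mouse as a block and each sample left out. The fit was tested on simulated data. Python 3.11.15 handled levels, promoters and figures (matplotlib 3.10.9). Positions and promoters were RefSeq's (GRCm38.p6), and exon overlaps were from GENCODE.

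The genes named were the 9 helicases, the 2 highest and 2 lowest log2 fold changes of each list of helicases, partners, G-quadruplex binding proteins and cell cycle genes against the Brca2-WT controls, the 3 nearest profiles of each helicase, Brca2 and Trp53. Dhx36, Top3a, Rmi2, Rmi1 levels, Atoh1, the partners called against adjacent tissue and the cell type sums were added after their values were seen. The helicases and all gene lists were chosen with earlier results of these data known. Tumor and adjacent samples came from the same mice, but the main fit did not use that pairing. Their deviations from the group means correlated at 0.249, 0.176 and 0.152 within GB344, GB359 and GB370 and at -0.163 to 0.018 between mice. The labels named no batch.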

Additional observations from a re-analysis of the deposited data

Results flagged for a closer look

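Among the 6 control cerebella, the level of Pif1 in GB512 (Brca2-mut;Trp53-WT), 1.64 TPM, stood far from the rest. Its gap to the next control made up 0.961 of the whole range of the 6. The same test was applied to the highest and the lowest control of each of the 9 genes and marked no other value, and chance marks about 1 in 20 groups. In the same sample the 12 G2 and mitosis genes summed to 65.1 TPM against 8.06 to 11.9 TPM in the other 5 controls, and all 12 were at 1 TPM or more against 3 of 12 in each of the others. Its 14 S phase genes summed to 256.5 TPM against 171 to 195 TPM. The 8 granule cell progenitor genes, at 599 TPM, lay within the 521 to 712 TPM of the controls, but Zic1 alone made up 542 TPM of that sum. Single progenitor genes differed: Ccnd2 was at 15.7 TPM against 3.27 to 7.48 TPM in the other 5 controls, and Mycn at 6.67 against 3.49 to 5.41 TPM. Sfrp1, at 2.93 TPM, was below their 5.34 to 6.45 TPM. Gli1, Gli2, Barhl1, Zic1 and Atoh1 (0.07 TPM) lay within their range. What made Pif1 and the cell cycle genes higher in GB512 was not tested.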

How the results depend on the processing

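The 5 calls against either control group remained 5 under both smaller pseudocounts (0.1 and 0.01), no filter, a filter of 5 TPM, both scalings and a fit of all 4 groups. With an adjusted p under 0.05 and no fold minimum, 8 genes passed against the Brca2-mut controls, 6 against adjacent tissue and 4 for adjacent tissue against the controls. Over all genes tested, 63.4%, 50.4% and 15.7% passed that limit in the same 3 comparisons. Between tumor and adjacent tissue the 2 calls became 1 with no filter, 3 with median-of-ratios scaling, 3 in the fit of all 4 groups, 4 with quantile normalization and 1 with the mouse as a replicate block (which changed no call but that of Blm), and from 0 to 2 with single samples left out. For adjacent tissue against the controls the 0 calls ranged from 0 to 2 with single samples left out. The cause was not tested.

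Signs turned only for log2 fold changes near 0. With single samples left out Recql5 ran from -0.0645 to 0.15 between tumor and adjacent tissue. For adjacent tissue against the controls, Recql was -0.0491 with median-of-ratios scaling, -0.0865 with quantile normalization and -0.0751 to 0.13 with single samples left out, and Brip1 ran from -0.0812 to 0.0722. Between the control genotypes, median-of-ratios scaling gave Recql 0.0064, Wrn 0.0451 and Brip1 0.0204, quantile normalization gave Blm 0.0197, Recql 0.0238, Wrn 0.0894, Brip1 0.0686 and Rtel1 0.0053, and single samples left out gave Wrn -0.0927 to 0.0318 and Brip1 -0.0924 to 0.0115. Among the alternative values for single genes 601 kept direction and call, 15 lost the call, 9 gained it and 21 changed sign.

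The background moved too. Genes called higher between tumor and adjacent tissue went from 755 to 465 without a filter, 1296 and 1603 with the scalings, 1278 in the fit of all groups and 189 to 913 with single samples left out. For adjacent tissue against the controls they went from 36 to 4, 51, 41 and 22 in the same order, to 10 without a trend and to 0 to 564 with single samples left out. The median over all genes against the Brca2-WT controls went from -0.16 to -0.01 (median-of-ratios) and 0.04 (quantile). The share of higher genes among all calls went from 20.9% to 34.4% and 42.2% between tumor and adjacent tissue, and from 94.7% to 87.9% and 69.5% for adjacent tissue against the controls. Without read counts, low levels such as those of Pif1 in the controls carry an unknown counting error, and 3 mice a group limit every interval.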
